A study of Mus musculus with 28 samples.

Results

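The 8 genes *Tbx1*, *Tbx2*, *Tbx3*, *Tbx4*, *Tbx5*, *Tbx15*, *Tbx18* and *Tbx20* are the T-box genes that act in the heart, limbs and other organs after the early mesoderm stage. They were chosen by name, all 8 were found in the mm9 annotation of 22367 protein-coding genes, and 9 other T-box genes of that annotation were used for comparison. In day 4 mesodermal cultures H3K27me3 and Suz12 were listed around the transcriptional start site (TSS) of all 8. Suz12 covered least at *Tbx3* and *Tbx20* in control, and the start sites of *Tbx3*, *Tbx18* and *Tbx20* lay in gaps that no H3K27me3 list covered. At the other genes 1 or 2 of 3 control lists and 0 to 2 of 3 4-OHT lists covered the start site. *Tbx3* alone among the 8 also had H3K27ac around its TSS in every list. After *Brg1* deletion H3K27me3 and Suz12 were still listed at all 8 genes. Around the TSS none of the 8 passed the main test across all genes for any mark, and neither did any other gene (0% of the genes tested). No Brg1-FLAG region near any of the 8 was listed in more than 1 of the 3 FLAG replicates.

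T-box proteins are transcription factors that share a DNA-binding domain, the T-box, and recognise short T-box elements. *T*, *Eomes* and *Tbx6* act early, in the primitive streak and nascent mesoderm. The genes described here were grouped by their roles in later organs, which does not exclude earlier ones. Polycomb repressive complex 2 (PRC2), of which Suz12 is a core subunit, places the H3K27me3 mark on silent developmental regulators, and H3K27ac marks active promoters and enhancers. Brg1 is the ATPase of the BAF chromatin remodelling complexes.

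The cultures came from the mouse embryonic stem cell line given as Brg1f/f; Actin-CreER, in which both *Brg1* alleles can be deleted by a Cre recombinase that 4-hydroxytamoxifen (4-OHT) activates. Cells were grown as embryoid bodies until day 2 and then exposed to Vegf, activin A and Bmp4 for 40 hours. At day 2 they received 200 nM 4-OHT in tetrahydrofuran (THF), which deletes *Brg1*, or THF alone, the control. H3K27me3 was measured in 3 control and 3 4-OHT cultures, Suz12 and H3K27ac in 2 and 2 each, and FLAG in 3 cultures with normal Brg1. The control and 4-OHT cells therefore share the floxed alleles and the Cre transgene, driven by a promoter active in all cell types, and differ in 4-OHT. The labels give the same line for FLAG, whereas the methods describe stem cells with a FLAG tag on the endogenous Brg1, and this could not be settled here. All cultures derive from stem cells differentiated in vitro, a mixed population in which fewer marked cells and less mark per cell cannot be told apart.

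Each of the 17 deposited lists gives the regions in which 1 library was enriched over input, with no score or read count, so depth is unknown. The measure used is the covered length, the base pairs (bp) of a window that lie in listed regions. FLAG replicate 3 stood apart with 192 regions against 8021 and 8257 in the others. The H3K27me3 lists numbered 1 were broken into short pieces, with a median region of 250 bp against 350 to 425 bp in the others. In each numbered pair the 4-OHT list of H3K27me3 was also shorter in total, by a ratio of 0.565, 0.817 and 0.760 to its control. Of the mesoderm markers *T*, *Mesp1*, *Kdr*, *Pdgfra*, *Eomes* and *Mixl1*, 5 of 6 had H3K27ac within 5 kb of the TSS in both control lists, and *Kdr* had none. H3K27ac was also present at 2 of 3 pluripotency markers (*Pou5f1* and *Nanog*), 1 of 3 endoderm markers (*Gata6*), 1 of 3 blood markers (*Runx1*) and 1 of 3 cardiomyocyte markers (*Tnnt2*), and at neither of the 2 neural markers that the annotation holds. H3K27me3 was listed in at least 2 control lists at 4 of 6 mesoderm, 3 of 3 endoderm and both neural markers. It was so listed at 1 of 3 blood, 1 of 3 cardiomyocyte and 0 of 3 pluripotency markers. *T*, *Pdgfra*, *Eomes* and *Gata6* had both marks by these counts.

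Around the TSS, in a window of 5 kb on each side, H3K27me3 was listed in at least 2 control lists at 8 of 8 genes, against 14.2% of all protein-coding genes. The same was true of Suz12 in both control lists, at 8 of 8 genes against 6.04% of all genes. In 4-OHT at least 2 lists held H3K27me3 and Suz12 at 8 of 8 genes as well, against 12.1% and 7.92% of all genes. The mean control H3K27me3 covered length of the 8 genes ran from 5083 bp at *Tbx4* to 8933 bp at *Tbx15*, where the median of the 3456 genes with H3K27me3 in at least 2 lists was 1183 bp. *Tbx4* exceeded 90.0% of those genes and *Tbx15* 99.4%. H3K27ac was listed there in both control lists at 1 of 8 genes, *Tbx3*, against 47.7% of all genes, and in both 4-OHT lists at 2 of 8, *Tbx2* and *Tbx3*, against 48.2%. The 9 other T-box genes were split. *T*, *Eomes*, *Tbx6* and *Mga* had H3K27ac in both control lists, *Tbr1* and *Tbx21* had H3K27me3 and Suz12 without H3K27ac, and *Tbx10*, *Tbx19* and *Tbx22* had none of the marks in this window.

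**Figure D1:**
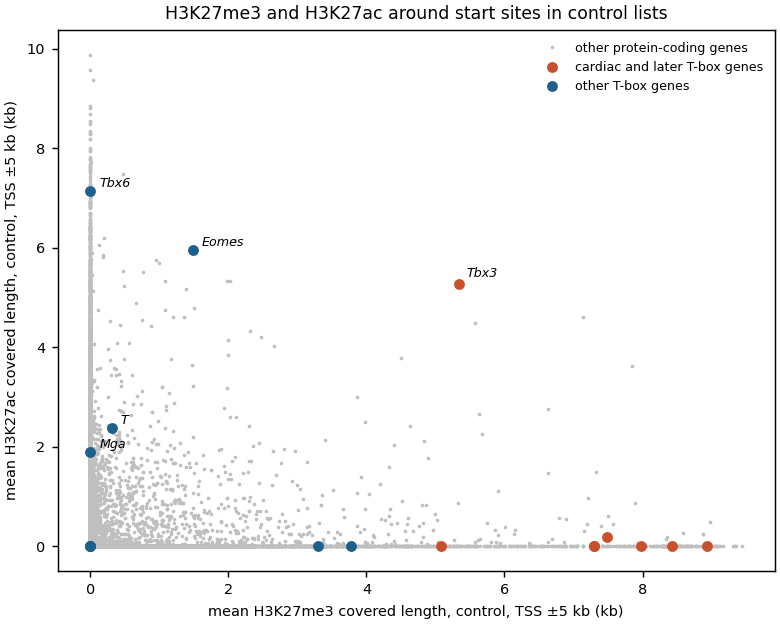
Mean control H3K27me3 covered length (x axis, kb, 3 lists) against mean control H3K27ac covered length (y axis, kb, 2 lists) within 5 kb of the TSS, with 1 point per protein-coding gene. The cardiac and later T-box genes (orange) lie along the H3K27me3 axis except *Tbx3*, which stands away from both axes. Among the other T-box genes (blue), *Tbx6* and *Eomes* lie at higher H3K27ac than *Tbx3*, and *T* and *Mga* at lower H3K27ac than *Tbx3* but above the H3K27me3 axis.

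The number of CG dinucleotides in the windows is a feature that the choice of genes did not use. Within 5 kb of the TSS the 8 genes held 175 (*Tbx15*) to 432 (*Tbx2*) CG dinucleotides, and each exceeded the median of 149 over 22355 genes. The share of all genes with fewer CG ran from 63.4% for *Tbx15* and 85.3% for *Tbx4* to 99.7% for both *Tbx1* and *Tbx2*. Close to the TSS the genes were less alike. In the 1000 bases centred on it *Tbx2* held 94 CG, *Tbx3* 82, *Tbx15* 26 and *Tbx5* only 8, where the median of all genes was 40.

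*Tbx5* (chr5:120284672-120335227, plus strand, mm9) encodes an activator of the left ventricle and forelimb programs and is linked to *Tbx3*, with 164 kb between their start sites. H3K27me3 covered 5954, 9650 and 9675 bp around its TSS in control lists 1, 2 and 3, and 4100, 9150 and 8175 bp in the 4-OHT lists with those numbers. The 4-OHT value was the lower in each pair, but the 2 conditions overlapped because control list 1 lay below 4-OHT lists 2 and 3. The mean was 8426 ± 2141 bp in control and 7142 ± 2679 bp in 4-OHT (SD, n = 3 each), and the exact permutation p was 0.5, where the smallest that 3 against 3 allow is 0.1. Suz12 covered 7371 and 7971 bp in control, against 6596 and 7046 bp in 4-OHT, so its conditions did not overlap. This was so, in the lower direction, at 1 of 8 genes against 6.94% of the 1902 genes tested, while 0 of 8 did not overlap in the higher direction, against 38.6%. The difference of -850 bp in Suz12 did not pass the test, with an adjusted p of 0.465 by limma, a linear model fitted across all genes with Benjamini-Hochberg adjustment, and with an exact permutation p of 0.33, the smallest that 2 against 2 allow.

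Within the *Tbx5* Suz12 domain, a stretch 0.621 kb upstream of the TSS, chr5:120283851-120284250, was listed in both control lists, over 150 and 375 bp, and in neither 4-OHT list. It was 1 of 2 Suz12 regions near the 8 genes lost in this way, the other lying in an intron of *Tbx15*, among 62 merged Suz12 regions. In the opposite direction 1 region, in *Tbx3* (chr5:120125651-120125875), was in both 4-OHT lists and no control list. How often regions elsewhere in the genome changed in either way was not counted. H3K27me3 still covered all 400 bp of the *Tbx5* stretch in 4-OHT lists 2 and 3, and none in list 1, which covered 200 bp of it in control. Its central 300 bases, chr5:120283901-120284200 on the plus strand, are intergenic and are shown because this was the only Suz12 stretch lost next to a start site. They hold no CG dinucleotide, so no letter is in capitals:
*Tbx5* Suz12 stretch: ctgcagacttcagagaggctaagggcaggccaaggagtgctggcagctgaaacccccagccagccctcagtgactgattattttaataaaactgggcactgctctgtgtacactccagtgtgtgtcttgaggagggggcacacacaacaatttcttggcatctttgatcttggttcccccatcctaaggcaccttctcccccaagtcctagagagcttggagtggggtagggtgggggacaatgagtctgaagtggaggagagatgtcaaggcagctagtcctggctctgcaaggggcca

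*Tbx20* (chr9:24527648-24578746, minus strand) is needed in the developing heart chambers. H3K27me3 covered 5270, 8450 and 8750 bp around its TSS in control and 4845, 8800 and 9125 bp in 4-OHT, so that 1 pair was lower in 4-OHT and 2 were higher. It was the only member whose mean H3K27me3 was not lower in 4-OHT in this window, with a difference of 100 bp (exact permutation p = 0.9). Suz12 covered 3100 and 3825 bp in control, against 3150 and 5450 bp in 4-OHT, which overlapped. The TSS of *Tbx20* lay in a gap of 725 bp between H3K27me3 regions, from 24578401 to 24579125, that no list of either condition covered. Small H3K27ac regions of 275 and 75 bp touched this gap in control list 2, and 175 bp in 4-OHT list 2, while both lists numbered 1 had none.

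*Tbx1* (chr16:18581806-18588113, minus strand) acts in the pharyngeal arches and the progenitors of the cardiac outflow tract. H3K27me3 covered 2737, 9625 and 9525 bp around its TSS in control and 1462, 9575 and 9525 bp in 4-OHT, so the lists numbered 2 and 3 differed by at most 50 bp. Suz12 covered 9013 and 9038 bp in control, against 8163 and 9013 bp in 4-OHT. No H3K27ac or FLAG region was listed within 50 kb of *Tbx1* in any list.

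*Tbx18* (chr9:87597635-87626095, minus strand) is expressed in the sinus node and epicardium. H3K27me3 covered 6019, 9100 and 8825 bp around its TSS in control and 4844, 8700 and 7750 bp in 4-OHT, lower in all 3 pairs while the conditions overlapped. Suz12 covered 7394 and 9475 bp in control, against 6250 and 8544 bp in 4-OHT, lower in both pairs and also overlapping. Its TSS lay in an H3K27me3 gap of 850 bp, from 87625451 to 87626300, bounded upstream by a region of 9275 bp and downstream by one of 5950 bp. The 250 bases upstream of the TSS, chr9:87626096-87626345 read on the minus strand, lie in that gap except for their furthest bases and are shown with each CG in capitals:
*Tbx18* upstream bases: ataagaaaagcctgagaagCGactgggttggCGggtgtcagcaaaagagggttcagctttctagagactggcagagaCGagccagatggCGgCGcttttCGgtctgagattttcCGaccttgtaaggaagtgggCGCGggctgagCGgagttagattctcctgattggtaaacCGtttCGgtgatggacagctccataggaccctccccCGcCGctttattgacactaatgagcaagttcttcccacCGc
They hold 15 CG, whereas the 250 bases upstream of the *Tbx5* TSS hold 0.

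*Tbx2* and *Tbx3* encode closely related repressors that keep parts of the heart, such as the atrioventricular canal, from becoming chamber muscle. *Tbx2* (chr11:85646053-85655450, plus strand) has *Tbx4* 53.9 kb further along, so their windows of 50 kb on each side share 46.1 kb. Around the *Tbx2* TSS H3K27me3 covered 3927, 9052 and 8927 bp in control, against 2402, 8427 and 8002 bp in 4-OHT, lower in each pair with overlapping conditions. Suz12 covered 8002 and 8177 bp in control, against 8077 and 8377 bp in 4-OHT. Over the gene body Suz12 covered all 9398 bp in each of the 4 lists.

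The H3K27ac regions listed at *Tbx2* were short and differed in part between the conditions. In control, an intron of *Bcas3* and *2610027K06Rik* upstream of *Tbx2* held a region 14.4 kb from the TSS over 350 and 475 bp in the 2 lists, which 4-OHT list 2 retained over 25 bp. Beside it a region 13.7 kb upstream, chr11:85632126-85632675, covered 200 and 550 bp in control and was listed in neither 4-OHT replicate. With regions joined within 1 kb, 0 distal regions near the 8 genes were in both control lists and no 4-OHT list. The share of such regions across the genome was not counted. In 4-OHT a region 0.411 kb downstream of the TSS, chr11:85646326-85646600, covered 275 and 25 bp and was in neither control list. Around the TSS this difference did not pass the test (limma adjusted p = 0.502). The 4-OHT lists were likewise all above the control lists at 42.1% of the 11364 genes tested. Over the whole locus H3K27ac covered 550 and 2100 bp in control, against 275 and 50 bp in 4-OHT, which did not overlap, as at 20.9% of genes in the lower direction (limma adjusted p = 0.343). The central 300 bases of the region lost 13.7 kb upstream, chr11:85632251-85632550 on the plus strand, hold no CG and are shown as the only distal H3K27ac region near the 8 genes that both 4-OHT lists lacked and both control lists held:
*Tbx2* distal region: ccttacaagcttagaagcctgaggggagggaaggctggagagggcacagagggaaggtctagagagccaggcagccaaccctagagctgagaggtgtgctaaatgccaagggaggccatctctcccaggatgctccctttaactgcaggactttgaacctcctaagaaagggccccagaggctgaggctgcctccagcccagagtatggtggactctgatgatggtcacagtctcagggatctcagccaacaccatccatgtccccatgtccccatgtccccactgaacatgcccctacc

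*Tbx3* (chr5:120120678-120134733, plus strand) was the member with both marks. Around its TSS H3K27ac covered 4750 and 5773 bp in control, against 3125 and 4100 bp in 4-OHT. The conditions did not overlap, and the mean was 5262 ± 723 bp in control and 3613 ± 689 bp in 4-OHT (SD, n = 2 each). At 13.3% of the 11364 genes tested the 4-OHT lists were likewise all below the control lists, and at 42.1% they were all above. The difference of -1649 bp did not pass the test, with a limma adjusted p of 0.247 and an exact permutation p of 0.33, although its unadjusted p was under 0.05, as at 19.9% of genes. Only 3 of the 8 genes had enough H3K27ac to enter this fit, the others being *Tbx2*, with 0 bp in both control lists against 275 and 25 bp in 4-OHT, and *Tbx20*, with 0 and 350 bp against 0 and 175 bp.

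H3K27ac at some cell type markers was also lower in 4-OHT. The 4-OHT lists were all below the control lists at 5 of the 20 markers, namely *T*, *Mesp1*, *Nanog*, *Runx1* and *Tnnt2*, and all above at 0 of them, against 13.3% and 42.1% of the genes tested. Of the 20 markers, 9 were at 0 in every H3K27ac list. Such genes were not among the genes tested, so the marker count and these shares have different bases. Summed over the 6 mesoderm markers H3K27ac spanned 19190 to 27263 bp in control and 13263 to 20088 bp in 4-OHT. The blood markers spanned 2075 to 2375 bp in control and 100 to 850 bp in 4-OHT, all of it at *Runx1*, with *Gata1* and *Tal1* at 0 in every list. The cardiomyocyte markers spanned 1050 to 1450 bp in control and 0 in both 4-OHT lists, all of it at *Tnnt2*, with *Myh6* and *Nkx2-5* at 0. The pluripotency markers spanned 10594 to 10694 bp in control and 10569 to 10644 bp in 4-OHT, and the endoderm markers 2057 to 3457 bp and 1657 to 3157 bp, with *Sox17* and *Foxa2* at 0. The neural markers were at 0 throughout. The part of cell composition in the H3K27ac values of *Tbx3* and *Tbx2* was not tested.

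H3K27me3 around the *Tbx3* TSS covered 2973, 5425 and 7625 bp in control, against 1873, 5575 and 7275 bp in 4-OHT. Suz12 covered 950 and 4273 bp in control, against 2275 and 5452 bp in 4-OHT, more in 4-OHT in both pairs, with overlapping conditions. *Tbx3* had the lowest mean control Suz12 of the 8 genes, at 2612 ± 2350 bp. The TSS lay in an H3K27me3 gap of 2050 bp, the widest of the 3 gaps at *Tbx3*, *Tbx18* and *Tbx20*. The 250 bases upstream of it, chr5:120120428-120120677 on the plus strand, lie within this gap and within a merged H3K27ac region to which all 4 lists contributed. They hold 24 CG, in capitals:
*Tbx3* upstream bases: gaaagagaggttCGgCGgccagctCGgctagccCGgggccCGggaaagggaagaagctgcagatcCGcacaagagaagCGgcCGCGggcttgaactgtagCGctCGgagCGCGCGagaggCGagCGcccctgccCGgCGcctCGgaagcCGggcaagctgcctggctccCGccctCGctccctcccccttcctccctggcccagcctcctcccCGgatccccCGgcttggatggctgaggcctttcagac

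The 2 marks also lay on the same bases at *Tbx3*. In control, 4750 bp were listed for H3K27ac in both lists, 5725 bp for H3K27me3 in at least 2 of 3, and 1550 bp for both. In 4-OHT the shared stretch was 925 bp. Of the 313 genes with as much control H3K27me3 as *Tbx3* or more, 28 had H3K27ac in both control lists. No other gene had both means at or above those of *Tbx3*. The limits in that comparison are the values of *Tbx3* itself, and other genes at the outer edge of the distribution could give the same result. It therefore does not rank *Tbx3* against genes with more of either mark and less of the other. A stretch with both marks in a mixed culture can come from different cells, and the lists cannot tell these apart.

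*Tbx4* (chr11:85699924-85729599, plus strand) acts in the hindlimb and lung. H3K27me3 covered 2902, 6248 and 6098 bp around its TSS in control and 1575, 5598 and 4798 bp in 4-OHT, lower in each pair. Suz12 covered 5123 and 5273 bp in control, against 4823 and 5123 bp in 4-OHT. *Tbx15* (chr3:99044304-99158182, plus strand) acts in the limb skeleton and skin. H3K27me3 covered 7525, 10000 and 9275 bp of its window in control, so that control list 2 filled it, and 6353, 9675 and 9100 bp in 4-OHT. Suz12 covered 4247 and 5822 bp in control, against 3575 and 5422 bp in 4-OHT. The *Tbx15* window also holds part of *Wars2*, and neither *Tbx4* nor *Tbx15* had H3K27ac or FLAG within 50 kb.

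Across the 8 genes the 4-OHT list had less H3K27me3 around the TSS in all 3 pairs at *Tbx2*, *Tbx4*, *Tbx5*, *Tbx15* and *Tbx18*, that is 5 of 8 genes against 53.6% of the 3456 genes tested. The conditions overlapped at 8 of 8 genes, where the 4-OHT lists were all below the control lists at 14.6% of the genes tested. The median difference over the 8 genes was -720 bp, against -383 bp over all genes tested, and the members' median ratio of 4-OHT to control was 0.904 against 0.672. These directions depend on the scale, since dividing each list by its total covered length turned the median difference of the 8 genes to 1237 bp, with all 8 higher in 4-OHT. As a share of the whole list, the 8 windows together held 0.445, 0.614 and 0.685% of the H3K27me3 covered length in control and 0.579, 0.728 and 0.836% in 4-OHT. By limma 0 of 8 genes and 0% of all genes were called, although 10.2% of all genes and none of the 8 had an unadjusted p under 0.05. Without 4-OHT list 1 the median difference was 683 bp.

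Same-numbered H3K27me3 lists deviated together from their condition means, although lists 2 and 3 also deviated together across numbers, and the pairs were also fitted as a block. Around the TSS the block called 0 of 8 genes and 1.19% of all genes lower, with *Tbx4* the closest at an adjusted p of 0.0698.

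**Figure D2:**
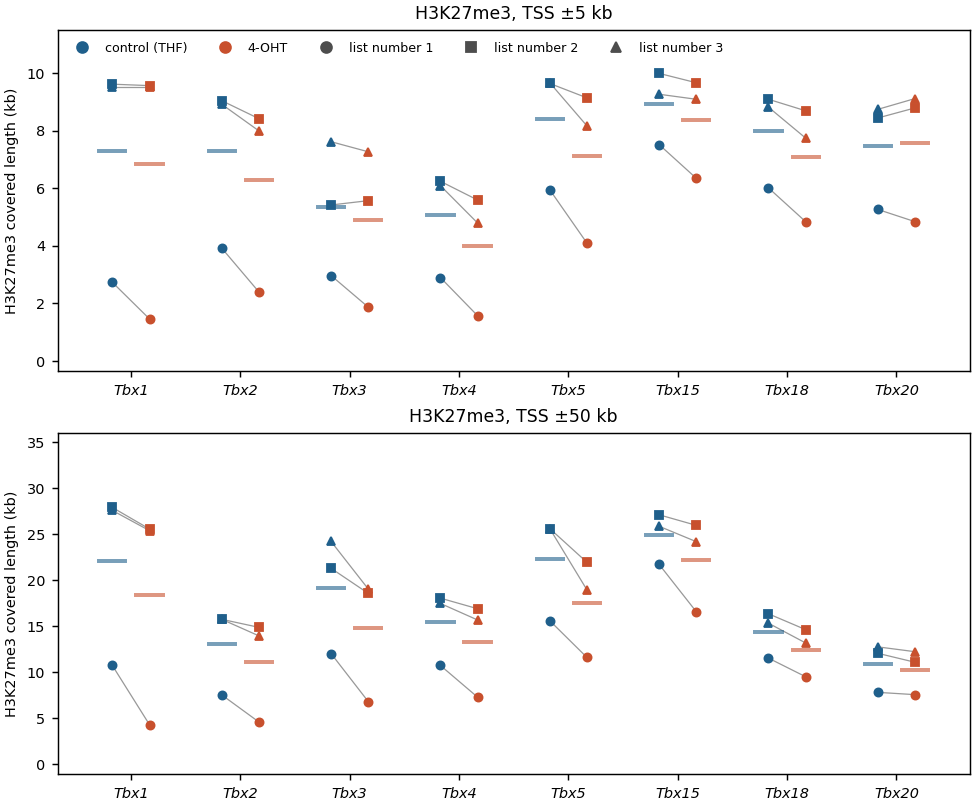
H3K27me3 covered length (y axis, kb) at each of the 8 genes (x axis) within 5 kb (top) and 50 kb (bottom) of the TSS, with a point per list, a grey line joining lists of the same number and a thick bar at each condition's mean. In the bottom panel every line runs downward from control (blue) to 4-OHT (orange), a direction that turns upward in the means when lists are scaled by their total length, and the lists numbered 1 lie below the others.

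Over 50 kb on each side of the TSS, H3K27me3 covered less in 4-OHT in all 3 pairs at 8 of 8 genes, against 59.7% of the 6980 genes tested, and on the scale of list totals the mean was higher in 4-OHT at all 8. At *Tbx5* it covered 15600, 25625 and 25625 bp in control, against 11600, 21950 and 18950 bp in 4-OHT. At *Tbx3* it covered 12025, 21300 and 24225 bp in control, against 6800, 18575 and 19050 bp in 4-OHT. At *Tbx18* it covered 11525, 16350 and 15325 bp in control, against 9500, 14625 and 13175 bp in 4-OHT. In each of these the conditions overlapped, and without the block no member and 0% of genes were called by limma, with adjusted p-values of 0.603 at *Tbx5*, 0.679 at *Tbx3* and 0.648 at *Tbx18*, although 12.7% of genes and none of the 8 had an unadjusted p under 0.05.

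With the pairs as a block, limma called 3 of 8 genes lower over 50 kb, against 12% of all genes. *Tbx18* fell by 1967 bp (SE 152, adjusted p = 0.0215), *Tbx3* fell by 4375 bp (SE 626, adjusted p = 0.0398) and *Tbx5* fell by 4783 bp (SE 718, adjusted p = 0.0433). The other 5 genes had differences from -583 bp at *Tbx20* to -3667 bp at *Tbx1*, with adjusted p-values from 0.0834 to 0.141, which missed the threshold. These calls need all 3 pairs: leaving out any pair left 0 members and 0 genes called, with the lowest member's adjusted p between 0.110 and 0.135. On list totals with the block, *Tbx18*, *Tbx3* and *Tbx5* were higher in 4-OHT by 2743, 609 and 1784 bp, with adjusted p-values of 0.341, 0.396 and 0.562.

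The share of the gene body covered differed between the genes and between the lists. In control lists 2 and 3 H3K27me3 covered 100% of the body of *Tbx1* and 97.1 to 100% of that of *Tbx2*, but 17.4 to 18.4% of *Tbx15*, 18.6 to 19.2% of *Tbx5* and 10.7 to 10.8% of *Tbx20*. Control list 1 covered 20.6% of *Tbx1*, 52.7% of *Tbx2*, 14.6% of *Tbx15*, 9.06% of *Tbx5* and 7.63% of *Tbx20*. These shares depend on gene length, which is 6.31 kb at *Tbx1*, 9.40 kb at *Tbx2*, 50.6 kb at *Tbx5*, 51.1 kb at *Tbx20* and 114 kb at *Tbx15*. In covered length *Tbx15* had the most of the 8 gene bodies, with a control mean of 19165 bp against 4639 bp at *Tbx1*. Over the gene body the mean H3K27me3 was lower in 4-OHT at all 8 genes, in all 3 pairs at 5 of 8 against 48.1% of the 3231 genes tested, and on list totals it was higher at 7 of 8. By limma none of the 8 and 0% of genes were called, and 8.26% of genes and none of the 8 had an unadjusted p under 0.05. Suz12 in the *Tbx18* body covered 4225 and 5000 bp in control, against 3450 and 4075 bp in 4-OHT, without overlap, as at 6.67% of 1920 genes in the lower direction (limma adjusted p = 0.529). For Suz12 in gene bodies 0% of genes were called, and 12% of genes and none of the 8 had an unadjusted p under 0.05.

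At *Tbx5* the H3K27me3 of the locus lay in 2 domains. One of 14375 bp, in the union of the 6 lists, held the TSS, and one of 12050 bp was centred 32.7 kb upstream, in intergenic sequence. Suz12 was also listed in the upstream domain in all 4 lists, over a merged stretch of 4000 bp. Over 50 kb on each side Suz12 covered 13150 and 14675 bp at *Tbx5* in control and 10350 and 13075 bp in 4-OHT, without overlap, as at 6.54% of genes in the lower direction (limma adjusted p = 0.630). On list totals this Suz12 difference was -3086 bp (SE 254) and was called, with an adjusted p of 0.0478 by limma, as 1 of 8 genes called lower against 0.685% of all genes on that scale, whereas with the block no member was called on that scale.

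Suz12 did not follow 1 direction over the 8 genes. Around the TSS it was lower in 4-OHT in both pairs at 5 of 8 genes (*Tbx1*, *Tbx4*, *Tbx5*, *Tbx15* and *Tbx18*), against 14.7% of the 1902 genes tested, and higher in both pairs at the other 3, against 47.9%. The median difference over the 8 genes was -331 bp, against 138 bp over all genes tested. Scaling by list totals left 6 of 8 genes lower, with a median of -710 bp. By limma 0 of 8 and 0% of all genes were called, with 11.2% of all genes and none of the 8 at an unadjusted p under 0.05. Without 4-OHT list 1 the median became 199 bp, and without control list 2 it became 114 bp.

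**Figure D3:**
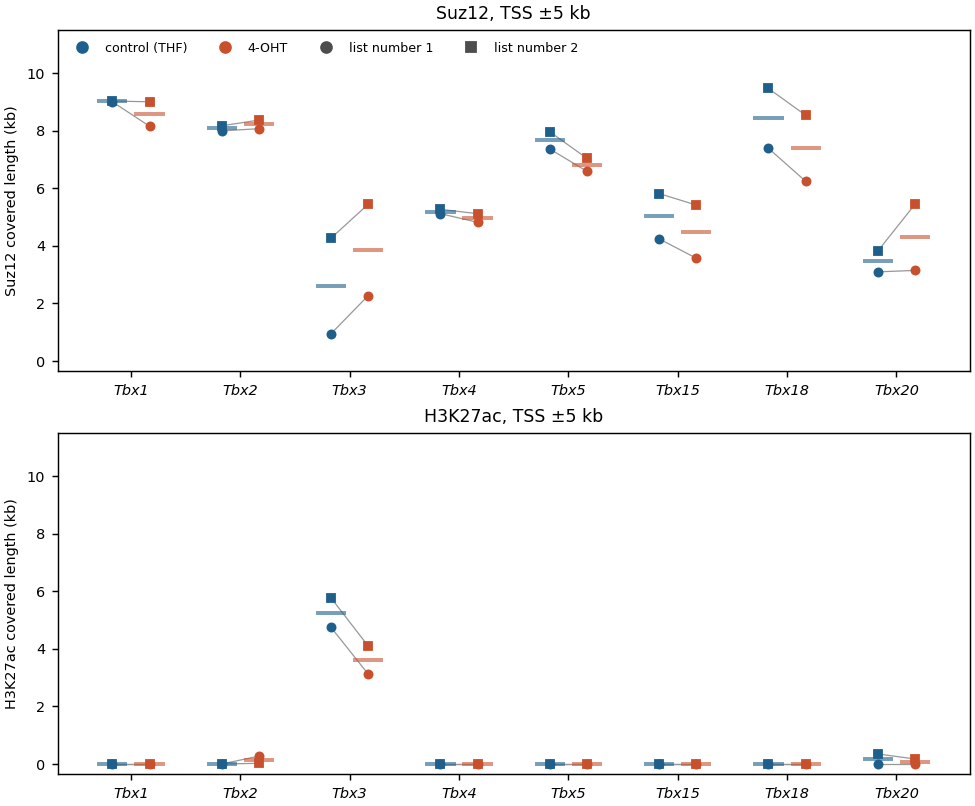
Suz12 (top) and H3K27ac (bottom) covered length within 5 kb of the TSS (y axis, kb) at the 8 genes (x axis), with a point per list, a line joining lists of the same number and a thick bar at each condition's mean. Suz12 lines run upward at *Tbx2*, *Tbx3* and *Tbx20* (*Tbx2* turns downward when lists are scaled by their total length), and H3K27ac stands above 3 kb only at *Tbx3*, where the 4-OHT points lie below the control points.

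The bases listed for Suz12 in both lists lay largely within H3K27me3. In control, 88.8% (*Tbx18*) to 100% of them were also listed for H3K27me3 in at least 2 of 3 lists. In 4-OHT this share was 100% at *Tbx1* and lower than in control at the other 7 genes, from 70% at *Tbx3* to 91.1% at *Tbx4*. The share was not computed over all genes, so a drop particular to these genes cannot be read from it. The 4-OHT lists of H3K27me3 were shorter in total, as given above, and their part in this share was not tested.

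H3K27ac regions within 50 kb were listed at *Tbx2* (6 merged regions), *Tbx3* (9), *Tbx5* (3) and *Tbx20* (3), 21 in all. Control list 2 held 20 of these, whereas control list 1 held 7, and the 4-OHT lists held 6 and 8. Control list 2 alone held 11 of them, including all 3 at *Tbx5*, which lay 23.3 kb upstream and 40.6 and 41.2 kb downstream of its TSS, the latter in an intron. At *Tbx3* 4 regions were in all 4 lists, namely the promoter region, one just downstream of the TSS, one at the 3′ end of the gene and one 39.7 kb downstream.

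The region 39.7 kb downstream of the *Tbx3* TSS, chr5:120159626-120161150, is intergenic and covered 1275 and 1300 bp in control, against 1525 and 1275 bp in 4-OHT. The promoter region, chr5:120115551-120120700, covered 4300 and 5150 bp in control, against 2650 and 3425 bp in 4-OHT, so the conditions overlapped at the downstream region and not at the promoter. The central 300 bases of the downstream region, chr5:120160238-120160537 on the plus strand, are shown with the T-box element letters AGGTGTGA in capitals:
*Tbx3* downstream region: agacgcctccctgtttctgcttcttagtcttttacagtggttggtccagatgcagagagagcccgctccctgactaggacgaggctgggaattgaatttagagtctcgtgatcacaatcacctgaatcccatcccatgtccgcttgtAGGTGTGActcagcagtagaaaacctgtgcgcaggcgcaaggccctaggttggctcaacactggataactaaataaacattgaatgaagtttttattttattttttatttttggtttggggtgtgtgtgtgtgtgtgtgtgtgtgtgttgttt
These letters, searched on both strands, occurred in 1.40% of 25202 central stretches of the same length from H3K27ac regions of control list 2, in none of the 250-base stretches upstream of the 8 genes and in 0.943% of those upstream of all genes. A match is a description of the sequence only. The GATA letters AGATAAG, searched in the same way, were in none of the sequences shown.

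**Figure D4:**
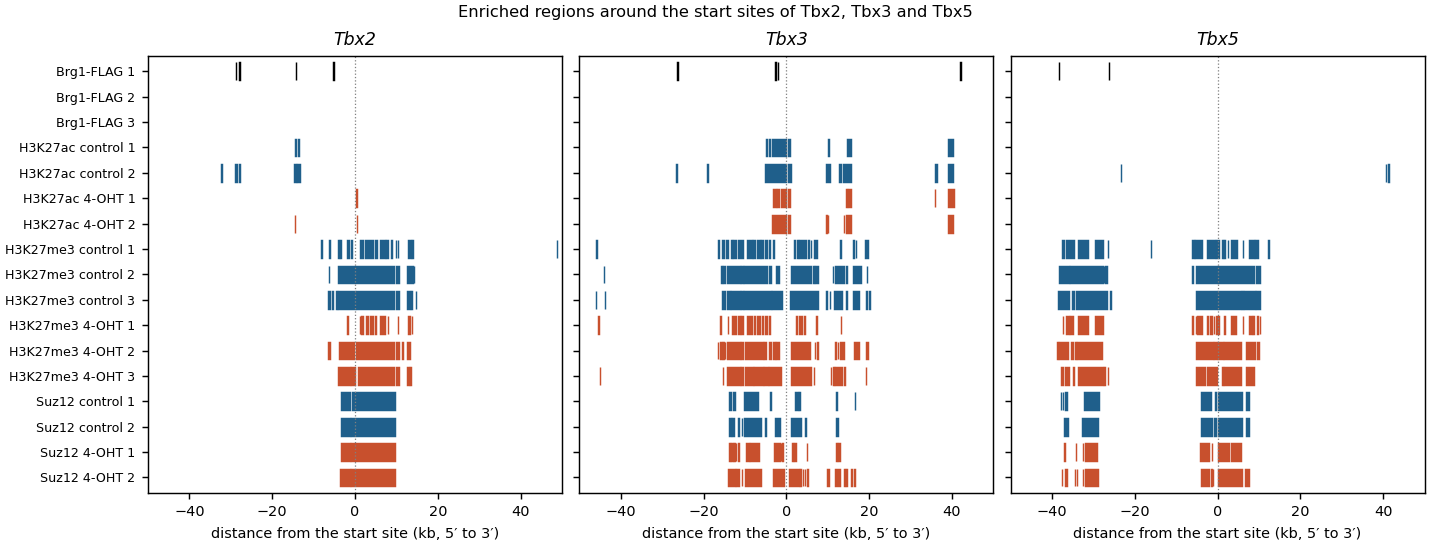
Regions of the 17 lists (rows) within 50 kb of the TSS of *Tbx2*, *Tbx3* and *Tbx5* (x axis, kb from the TSS in the direction of transcription), with FLAG in black, control in blue and 4-OHT in orange. Narrow regions are drawn with a minimum line width. FLAG marks appear in replicate 1 alone, H3K27ac (blue and orange) flanks the *Tbx3* TSS, and H3K27me3 and Suz12 blocks surround the start sites in both conditions.

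Brg1-FLAG regions within 50 kb numbered 12, at *Tbx2* (4), *Tbx3* (4), *Tbx5* (2) and *Tbx20* (2). All 12 were in FLAG replicate 1 and none in replicate 2 or 3, and they were 25 to 275 bp wide. Hence 0 of 8 genes had FLAG coverage in at least 2 lists, against 17.5% of all genes over 50 kb and 4% around the TSS, and 4 of 8 had it over 50 kb in at least 1, against 38.1%. In the gene bodies FLAG was listed at 0 of 8, against 15% of all genes. Replicate 2 listed as many regions genome-wide as replicate 1, and replicate 3 listed few, so a weak site in replicate 3 was not detectable. Of the 12 regions, 6 overlapped a control H3K27ac region, at *Tbx2* and *Tbx3*, and 3 overlapped a control H3K27me3 region.

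Near a start site FLAG was listed only at *Tbx3* and *Tbx20*, 2 of 8 genes against 14.1% of all genes. At *Tbx3* regions of 125 and 25 bp lay 2.66 and 1.94 kb upstream of the TSS, in an intron of *Gm2301* and inside the H3K27ac promoter region. Control H3K27me3 also overlapped them, in 1 and 2 lists, and control Suz12 in 1 list at each. At *Tbx20* a region of 150 bp lay 0.630 kb upstream, where no control list of any mark had a region. In 4-OHT, H3K27me3 lists 2 and 3 covered 25 and 150 bp of it. Windows of 150 bases centred on the wider *Tbx3* region, chr5:120117938-120118087, and on the *Tbx20* region, chr9:24579301-24579450, are shown on the plus strand with each CG in capitals. They are shown as the widest FLAG region within 5 kb of each of these start sites:
*Tbx3* FLAG window: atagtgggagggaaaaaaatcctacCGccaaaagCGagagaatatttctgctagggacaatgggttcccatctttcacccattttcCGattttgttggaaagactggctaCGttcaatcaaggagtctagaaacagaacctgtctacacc
*Tbx20* FLAG window: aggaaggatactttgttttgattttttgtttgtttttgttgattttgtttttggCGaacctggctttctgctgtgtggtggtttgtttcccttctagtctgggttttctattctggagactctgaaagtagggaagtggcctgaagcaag
Neither holds the T-box letters, which 0.586% of the 8021 windows of replicate 1 hold.

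Among the early T-box genes, H3K27ac around the TSS covered 5050 and 6875 bp at *Eomes*, 2188 and 2563 bp at *T*, and 6375 and 7900 bp at *Tbx6* in control, and FLAG was listed there in replicates 1 and 2 at all 3. In 4-OHT H3K27ac covered 2825 and 5275 bp at *Eomes*, 1588 and 1988 bp at *T* and 5704 and 8000 bp at *Tbx6*, so that the conditions did not overlap at *T*. At *Mga* it covered 1900 bp in both control lists and 1825 and 1975 bp in 4-OHT. H3K27me3 in at least 2 control lists was also listed around *T* (150 bp) and *Eomes* (1925 bp), and at *Eomes* 625 bp of it had H3K27ac in both control lists. Of the 9 other T-box genes, 4 entered the fit of each mark around the TSS and none was called by limma.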

How the data were processed

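ChIP-seq lists of enriched regions were used for FLAG (3 cultures), H3K27ac (2 control, 2 4-OHT), H3K27me3 (3 and 3) and Suz12 (2 and 2). Of the 28 samples, 11 inputs served the authors in calling and were not used otherwise. Per the labels, reads were aligned with Bowtie to mm9, with versions not given in the sources used here. The authors called regions in each library over input with a Poissonian model, and the deposited files hold coordinates only (chromosome, start and end), which carry no signal or count. Thresholds are 1e-06, with at least 2-fold enrichment, for FLAG and 1e-12 for the others. Edges lie on a grid of 25 bp.

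Covered bp were computed for the TSS ± 5 kb, the gene body and the TSS ± 50 kb of each protein-coding gene of GENCODE vM1 (mm9, most upstream annotated TSS). All list ends lay within the reference chromosomes. 4-OHT minus control was tested with limma 3.58.1 (R 4.3.3) on covered bp, within each mark, over genes covered in at least 2 of its lists, with Benjamini-Hochberg adjustment and a threshold of 0.05. Exact permutation tests of single values are two-sided. Same-numbered libraries were entered as a replicate block where their deviations correlated (H3K27me3: 0.905, 0.805 and 0.762 for numbers 1, 2 and 3). Lists numbered 2 and 3 also correlated across numbers (0.584 and 0.649), and list 1 was opposed to both (-0.762 to -0.819). The pairing was judged from the lists, and the labels call the replicates biological. Regions of different lists sharing at least 1 bp were merged. The fits without a block were also run on simulated data with independent noise and no pairing of lists. That setting differs from these lists, so the run does not show which differences could be detected in them. Python 3.11.15, NumPy 2.4.6, pandas 2.3.3 and Matplotlib 3.10.9 were used.

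The genes, the other lists and the tests were chosen with earlier results of these data known. All 8 genes are named. Other T-box genes are named where called or where H3K27ac lay at the TSS in both control lists, and *Tbr1*, *Tbx10*, *Tbx19*, *Tbx21* and *Tbx22*, outside that rule, were named after their values were seen. Genes of like pattern were to be named for members with called or non-overlapping H3K27me3 around the TSS, and no member met this. Of the neural markers *Sox1*, *Pax6* and *Neurog2*, *Sox1* was not matched as a protein-coding gene. Alternatives were a replicate block, a log2 scale, scaling by list totals, no filter, all annotated TSSs, 2.5 kb windows, regions of at least 200 bp, regions within 1 kb joined, and the omission of single replicates.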

Additional observations from a re-analysis of the deposited data

How the results depend on the processing

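Scaling by list totals turned the members' median H3K27me3 difference around the TSS from -720 to 1237 bp, with and without the replicate block (that combination was added after seeing the data), and leaving out single replicates gave -2024 bp (without control list 1) to 683 bp (without 4-OHT list 1). For Suz12 leaving out single replicates moved the median from -331 bp to between -619 bp (without 4-OHT list 2) and 199 bp (without 4-OHT list 1). The number of members called around the TSS stayed at 0 under every alternative for H3K27me3 and H3K27ac. For Suz12 it was 1 (*Tbx18*, adjusted p = 0.0325) with scaling and the replicate block together, which called 123 genes. Over 50 kb it was 3 for H3K27me3 with the replicate block (836 of 6980 genes called) and 1 for Suz12 with scaling (48 of 3794 genes called), both added after seeing the data. With the replicate block alone no other member was called.

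The difference of -1649 bp in *Tbx3* H3K27ac was -2799 bp with windows at all annotated TSSs and -350 bp with 2.5 kb windows. Against 0 genes called in each mark, the replicate block called 41 for H3K27me3. The log2 scale called 22 genes for H3K27me3, 143 for Suz12 and 145 for H3K27ac, and no filter called 13 for Suz12 and 94 for H3K27ac. For H3K27ac, joined regions called 103 and scaling with the replicate block 425. Leaving out single replicates gave 0 to 226 for Suz12, the latter without 4-OHT list 1.

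Counting a FLAG region in any replicate raised the members with FLAG from 0 to 2 around the TSS and to 4 over 50 kb. Of 16 merged H3K27ac regions away from start sites, 10 to 16 stayed when single replicates were left out, with 10 without control list 2. The number in every control list was 5 (5 to 16), and in no 4-OHT list besides, 1 (1 to 11), the higher values both without control list 1, with 0 on joining and 2 among regions of at least 200 bp. The cause was not tested. With 2 or 3 lists per condition and no read depth, small differences were not detectable.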
